A study of Mus musculus with 4 samples.

Results

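The genes described here are 8 transcription factor genes of the myeloid lineages, namely the C/EBP family genes *Cebpa*, *Cebpb*, *Cebpd*, *Cebpe* and *Cebpg*, together with *Spi1*, *Irf8* and *Gfi1*. They were chosen by name, with earlier results of these data known, and all 8 were found among the 23906 gene symbols measured. RNA was sequenced from LSK-SLAM cells, an immature haematopoietic population (lineage negative, Sca1 and cKit positive, CD150 positive, CD48 negative) that is enriched for haematopoietic stem cells (HSCs). The cells came from BRE-GFP transgenic mice kept on a C57BL/6 background, in which a BMP-responsive element drives GFP, so that GFP+ cells are those with BMP signalling active when they were sorted. The 4 groups were GFP+ and GFP- cells of the fetal liver (FL) at embryonic day 14 and GFP+ and GFP- cells of adult bone marrow (BM), with 1 sample each. All groups carried the transgene, the labels name no treatment, and the number of animals behind a sample is not given in the sources used here. Embryos came from heterozygous transgenic males mated with wild-type females, and the data come from a single transgenic line among those derived. The comparisons ask how the factors differ between BMP-activated and non-activated cells of each tissue, and between the tissues for each fraction.

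Commitment of an HSC to the granulocyte and monocyte lineages is driven by a small set of transcription factors that act on one another. PU.1, the ETS factor encoded by *Spi1*, is present from the stem cell onwards and is needed for both myeloid and lymphoid cells. C/EBPα, encoded by *Cebpa*, takes progenitors into the granulocyte and monocyte lineage, C/EBPε drives the late granule programme of neutrophils, and C/EBPβ and C/EBPδ take part in emergency granulopoiesis and inflammation. C/EBPγ, encoded by *Cebpg*, lacks an activation domain and pairs with other bZIP proteins. IRF8 favours monocytes and dendritic cells over granulocytes, whereas the zinc-finger repressor GFI1 favours granulocytes and limits HSC division.

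Values are FPKM, in which the fragments of a gene are divided by the length of its transcript and by the size of the library, a scale per length on which different genes can be set side by side. With 1 sample per group there is no replicate error, no difference below has a test, and the precision of a single FPKM was not estimated because read counts were not analysed here. A gene was called higher in a sample when its FPKM was more than 2 times that in the other, provided that at least 1 of both values reached an FPKM of 1. Where a pair of values is given for a tissue, the GFP+ value comes first. Log2 ratios were computed on FPKM + 1, which understates the differences of genes with low values. In all, 12372 to 17345 genes were above 0 in a library. The tissue labels were checked against fetal stage genes, and 6 of 6 (*Lin28b*, *Hmga2*, *Igf2bp1*, *Igf2bp3*, *Igf2* and *H19*) were more than 2-fold higher in FL for both fractions. The GFP labels could not be checked in this way, and the study's own plots appear to show the samples in the reverse order of the deposited labels. The study's account of *Flt3* also differs from the values under these labels, as given below. Every GFP+ and GFP- value here follows the deposited labels, and the direction of each GFP difference rests on them. The BM GFP+ library stood apart in several stem cell and sorting genes. *Kit* was 22.2 there against 76.6 to 150 in the others. *Procr*, not used in the sort, was listed at 0 against 60.8 to 113. *Cd48*, a marker of cells the sort removes, was 267 against 17.4 to 126. *Slamf1* (CD150) was lowest there, at 4.74 against 6.47 to 12.6. *Ly6a* (Sca1), a marker the sort keeps, was instead highest there, at 286 against 19.7 to 146. The summed markers of B cells, T and NK cells, erythroid cells and macrophages were higher in both BM libraries than in both FL libraries and highest in BM GFP+. In samples of this kind more cells of a type and more RNA per cell cannot be told apart.

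*Spi1* and *Irf8* held the highest levels among the factors, but only *Spi1* was high in every library. The FPKM of *Spi1* was 196 and 155 in the FL pair and 315 and 173 in the BM pair. It thus spanned about 2-fold over the 4 libraries and stood above 95.6% to 96.6% of the genes detected in each. *Irf8* read 15.1 and 4.79 FPKM in the FL pair and 320.0 and 132 FPKM in the BM pair. Its place among the detected genes went from above 55.2% and 45.6% of them in the FL libraries to above 96.7% and 94.6% in the BM libraries. *Gfi1* read 0.147 and 20.9 FPKM in the FL pair and 7.66 and 5.28 FPKM in the BM pair. *Gfi1* was therefore the second highest of the 8 factors in FL GFP- cells, and near 0 in the FL GFP+ library.

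**Figure D1:**
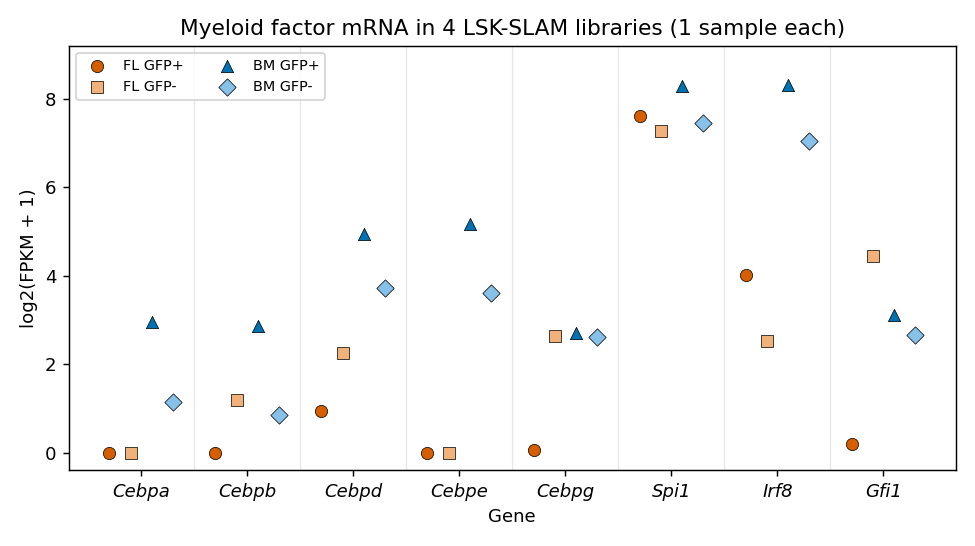
Level of each factor as log2(FPKM + 1) on the vertical axis in the 4 libraries (FL and BM, GFP+ and GFP-), with 1 point per library and no error, since each group had 1 sample. *Spi1* lies between 7.28 and 8.30 in all libraries, while *Cebpa* and *Cebpe* lie at 0 in both FL libraries.

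Ratios of one gene to another within a library do not depend on how libraries were scaled against each other. The ratio of *Spi1* to *Irf8* was 13.0 and 32.3 in the FL pair and 0.983 and 1.32 in the BM pair. *Spi1* made up 92.4% and 81.1% of the summed FPKM of the 8 factors in the FL pair, against 43.3% and 50.9% in the BM pair. For *Irf8* over *Gfi1*, the pair with opposed roles in the choice between monocyte and granulocyte, the ratio was 103 and 0.229 in the FL pair and 41.8 and 25.0 in the BM pair. FL GFP- was the 1 library in which *Gfi1* exceeded *Irf8*, by 4.37-fold.

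The order of the 8 factors differed between libraries, and several neighbours in the order were close. In BM GFP+ cells *Irf8* and *Spi1* differed by 1.02-fold, *Cebpe* and *Cebpd* by 1.17-fold, and *Gfi1*, *Cebpa*, *Cebpb* and *Cebpg* followed each other in steps of 1.07-fold to 1.15-fold. In BM GFP- cells *Cebpd* exceeded *Cebpe* by 1.09-fold and *Gfi1* exceeded *Cebpg* by 1.02-fold. In FL GFP- cells *Cebpg*, *Irf8* and *Cebpd* were separated by 1.10-fold and 1.27-fold. Without replicates none of these orders can be told from a tie.

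Most of the C/EBP genes were highest in the BM libraries. *Cebpa* was listed at 0 in both FL libraries and read 6.77 and 1.23 FPKM in the BM pair. *Cebpe* was likewise listed at 0 in both FL libraries, and reached 35.1 and 11.2 FPKM in the BM pair. *Cebpd* was present in all 4, at 0.918 and 3.77 in the FL pair and 29.9 and 12.1 in the BM pair. Both BM libraries were above both FL libraries for these 3 genes and for *Irf8*, or 4 of 8 factors, a pattern held by 26.2% of the 13609 genes that reached 1 FPKM in any library. *Cebpb* did not follow it, with an FPKM of 0 and 1.27 in the FL pair and 6.32 and 0.799 in the BM pair. Nor did *Cebpg*, the partner without an activation domain, at 0.0484 and 5.26 in the FL pair and 5.49 and 5.17 in the BM pair, where 3 libraries lay close together and FL GFP+ lay near 0.

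Added up, the C/EBP family read 0.966 and 10.3 FPKM in the FL pair and 83.7 and 30.5 FPKM in the BM pair. Its make-up differed as well as its sum. In FL GFP- cells *Cebpg* took 51.1% of the family sum and *Cebpd* 36.6%. In the BM libraries *Cebpe* took 42.0% and 36.6% and *Cebpd* 35.8% and 39.8%, with *Cebpa* at 8.09% and 4.02%. *Spi1* exceeded the whole C/EBP sum in every library, by 203-fold and 15.0-fold in the FL pair and by 3.76-fold and 5.68-fold in the BM pair.

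**Figure D2:**
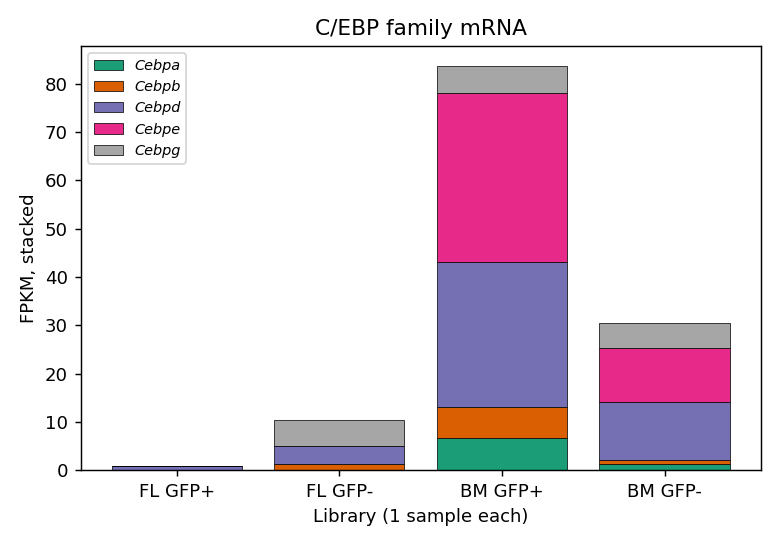
Stacked FPKM of the C/EBP genes in each of the 4 libraries (1 sample each, no error), with 1 colour per gene and an axis that starts at 0. The BM GFP+ bar reaches 83.7 and the FL GFP+ bar 0.966, and *Cebpe* and *Cebpd* form most of both BM bars.

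*Cebpa* and *Cebpg* are neighbours in the genome and were unlike in these libraries. In NCBIM37 *Cebpa* lies on chromosome 7 from 35904312 to 35906945 as a single exon on the plus strand, and *Cebpg* on the minus strand from 35831441 to 35841522, so that they point away from each other with 62789 bases between them. Their promoters are shown to set side by side the sequence next to the start of a gene listed at 0 in both FL libraries and of one present in FL GFP-. Both are the 250 bases before the RefSeq start site, printed in the direction of transcription, in build GRCm38.p6 at chr7:35119043-35119292 (plus strand) and chr7:35056567-35056816 (minus strand). Capitals mark matches to any of 7 short motifs searched on both strands, which were TTGCNNAA for C/EBP, the CCAAT box, the PU.1 core GAGGAA, a repeat of GAAA after 2 free bases for IRF factors, AATCNNNGC for GFI1, the GC box written GGGCGG and the TATA box written TATAAA.
Cebpa: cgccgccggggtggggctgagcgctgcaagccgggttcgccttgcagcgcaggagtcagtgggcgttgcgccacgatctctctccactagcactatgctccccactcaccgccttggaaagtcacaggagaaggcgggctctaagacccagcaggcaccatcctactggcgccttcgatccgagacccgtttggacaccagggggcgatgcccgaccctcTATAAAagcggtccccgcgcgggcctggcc
Cebpg: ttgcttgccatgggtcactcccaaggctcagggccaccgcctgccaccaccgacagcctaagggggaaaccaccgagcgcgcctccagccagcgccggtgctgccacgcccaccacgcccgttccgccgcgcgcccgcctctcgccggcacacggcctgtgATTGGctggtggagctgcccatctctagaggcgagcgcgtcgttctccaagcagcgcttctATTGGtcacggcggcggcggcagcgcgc
The *Cebpa* window held a TATAAA from position -30 to -25 before the start and no other match. The *Cebpg* window held no TATAAA and had 2 CCAAT boxes on the opposite strand, read as ATTGG from -89 to -85 and from -28 to -24. Over all 32851 promoter windows of this length, TATAAA occurred in 12.4% and CCAAT in 33.8%. A match is a stretch of letters and says nothing of binding.

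*Irf8* and *Gfi1*, the pair with opposed roles whose order was reversed in FL GFP- cells, are shown in the same way, with windows at chr8:120736108-120736357 (plus strand) and chr5:107725806-107726055 (minus strand) of GRCm38.p6. Each of these genes has a further RefSeq start, whose window held no match.
Irf8: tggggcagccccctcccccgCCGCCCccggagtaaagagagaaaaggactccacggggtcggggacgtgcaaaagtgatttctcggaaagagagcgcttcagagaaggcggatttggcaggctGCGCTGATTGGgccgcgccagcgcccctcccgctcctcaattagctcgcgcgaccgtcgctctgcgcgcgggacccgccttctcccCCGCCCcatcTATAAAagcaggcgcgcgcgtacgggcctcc
Gfi1: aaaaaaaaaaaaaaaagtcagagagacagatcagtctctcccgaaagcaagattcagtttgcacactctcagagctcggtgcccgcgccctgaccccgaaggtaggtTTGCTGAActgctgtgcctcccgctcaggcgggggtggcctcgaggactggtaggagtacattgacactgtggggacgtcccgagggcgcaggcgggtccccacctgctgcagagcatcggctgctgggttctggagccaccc
In the *Irf8* window the letters of the GFI1 motif read on the opposite strand, from -127 to -119, overlapped a CCAAT box on the opposite strand from -121 to -117. The same window had a TATAAA from -31 to -26 and GC boxes from -230 to -225 and from -41 to -36, both on the opposite strand. The *Gfi1* window had 1 match, to the C/EBP letters, TTGCTGAA from -143 to -136. The C/EBP letters occurred in 9.56%, the GFI1 letters in 8.87% and the GC box in 32.7% of all windows. The promoter of *Cebpb* (250 bases, 81.6% G and C) held 5 GC boxes, of which the first 2 overlap, and no other match, and no window of the 5 factors in the RefSeq table held the PU.1 or IRF letters, which occurred in 23.3% and 2.98% of all windows. *Cebpd*, *Cebpe* and *Spi1* had no entry in it.

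The first question of the design is how GFP+ and GFP- cells of the FL differ. Of the 8 factors, 6 passed the FPKM minimum, and 4 of these (*Cebpb*, *Cebpd*, *Cebpg* and *Gfi1*) were more than 2-fold higher in GFP- cells, while *Irf8* was higher in GFP+ cells. *Cebpa* and *Cebpe* were at 0 in both fractions. Over all 12134 genes past the minimum, 44.7% were called, 26.8% as higher in GFP- and 17.9% as higher in GFP+ cells. *Gfi1* had the largest log2 ratio of the factors, -4.25 (0.147 in GFP+ against 20.9 in GFP-), and *Cebpg* had -2.58, *Cebpd* -1.31 and *Cebpb* -1.18. The order of *Cebpd* and *Cebpb* depends on the pseudocount, since with 0.1 in place of 1 they had -1.93 and -3.78. *Irf8* was 3.16-fold higher in GFP+ cells, a log2 ratio of 1.48. *Spi1* differed by 1.27-fold, within the threshold. The median log2 ratio of the 6 factors was -1.25, against 0.05 over all genes tested. Calls were common among genes of low FPKM, at 69.2% of those whose higher value was between 1 and 10, a range that holds *Cebpb*, *Cebpd* and *Cebpg*, against 32.4% of those between 10 and 100, the range of *Irf8* and *Gfi1*. With an FPKM minimum of 5, 3 of the factors remained called, *Cebpg*, *Irf8* and *Gfi1*. Fewer genes were above 0 in FL GFP+ (12372) than in FL GFP- cells (15556), while the study's methods list more mapped reads for FL GFP+. The hepatocyte genes *Alb* and *Afp* were at 140 and 149 in FL GFP+ against 9.49 and 5.66 in FL GFP- cells. The part of gene detection, read depth or hepatocyte RNA in these differences was not tested.

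In the BM the called factors were all higher in GFP+ cells. Of 8 factors tested, 5 (*Cebpa*, *Cebpb*, *Cebpd*, *Cebpe* and *Irf8*) were more than 2-fold higher in GFP+ cells and 0 in GFP- cells. All genes together were called at 40.7% of 12385, with 21.1% higher in GFP+ and 19.6% higher in GFP- cells. *Cebpb* had the largest difference at 7.91-fold (6.32 against 0.799), followed by *Cebpa* at 5.52-fold, *Cebpe* at 3.14-fold, *Cebpd* at 2.47-fold and *Irf8* at 2.43-fold. *Spi1* was 1.81-fold higher in GFP+ cells, *Gfi1* 1.45-fold and *Cebpg* 1.06-fold, none of them past the threshold. Of all genes whose higher value was between 1 and 10, the range of *Cebpa* and *Cebpb*, 58.2% were called, against 31.3% of those between 10 and 100, the range of *Cebpd* and *Cebpe*. The median log2 ratio of the 8 was 1.25, against 0.12 over all genes tested. When each library was scaled to the same FPKM total, *Cebpd* and *Irf8* dropped below 2-fold, to log2 ratios of 0.79 and 0.82, and 3 factors remained called. Most lists of mature-cell markers differed between these libraries in the same direction. Higher in GFP+ cells were 8 of 8 later granule and neutrophil genes, 5 of 6 erythroid and 4 of 6 B cell markers. So were 4 of 5 T and NK cell and 5 of 6 macrophage markers among the symbols measured. Of the stem cell and sorting genes, 7 of 9 were lower. The macrophage gene *Cd163* was called lower in GFP+ cells, as was *Vwf* among 6 megakaryocyte markers, at 0.955 against 3.55, and none of these 6 was called higher. The summed FPKM of the B cell markers was 3392 and 948 in this pair and that of the erythroid markers 24974 and 3490. Their part in the levels of the factors was not tested.

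**Figure D3:**
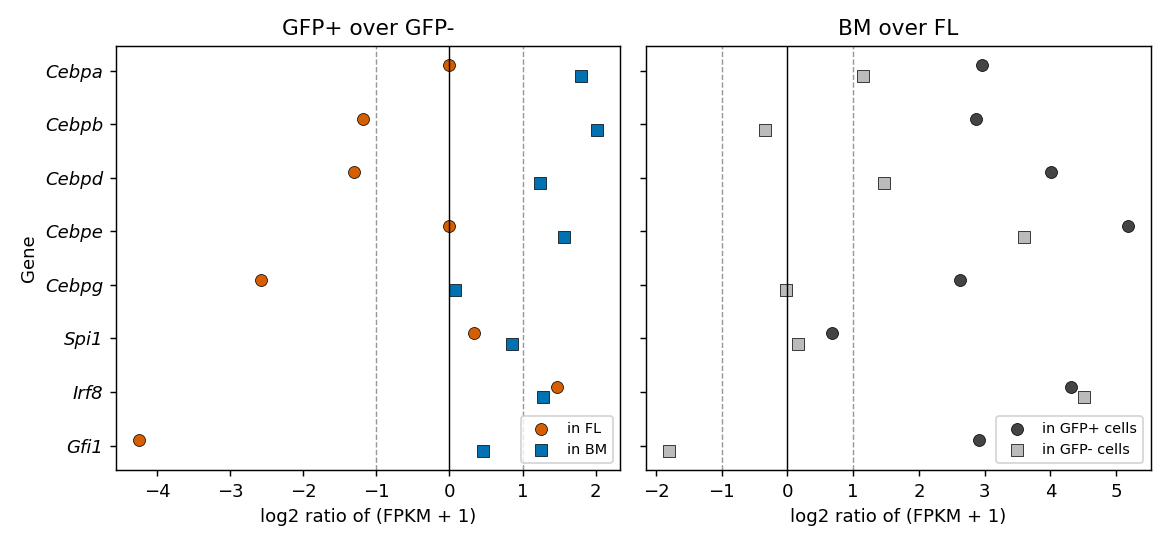
Log2 ratio of (FPKM + 1) on the horizontal axis for each factor, GFP+ over GFP- in each tissue on the left and BM over FL in each fraction on the right, with 1 point per comparison and dashed lines at a 2-fold ratio. *Gfi1* sits at -4.25 in FL and 0.46 in BM on the left, and *Spi1* stays within the dashed lines in all 4 comparisons.

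Read against the rule that asks for the same 2-fold difference in FL and BM, 1 factor passed, *Irf8*, higher in GFP+ cells of both tissues. The background over 10910 genes with a value past the minimum in each tissue was 3.45% for the GFP+ direction and 6.48% for the GFP- direction. *Cebpb* and *Cebpd* passed the threshold in opposite directions, with GFP- higher in the FL and GFP+ higher in the BM, a pattern held by 5.79% of genes, and none showed the reverse, which 3.75% of genes did. *Irf8* lost its place with libraries scaled to the same FPKM total, since its BM difference was then under 2-fold.

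Between the tissues, GFP- cells give the comparison that leaves out the BM GFP+ library. In them 4 factors (*Cebpa*, *Cebpd*, *Cebpe* and *Irf8*) were higher in BM, *Gfi1* was higher in FL, and *Cebpb*, *Cebpg* and *Spi1* were within 2-fold. Of all 12703 genes tested, 37.9% were called, 18.6% as higher in BM and 19.3% as higher in FL. *Irf8* was 27.5-fold higher in BM (132 against 4.79), and *Cebpd* 3.22-fold. *Cebpe* and *Cebpa* have no fold, being listed at 0 in FL, and differed by 3.61 and 1.16 on the log2(FPKM + 1) scale. *Gfi1* was 3.96-fold lower in BM than in FL GFP- cells. *Spi1* differed by 1.12-fold and *Cebpg* by 1.02-fold. Of all genes with a higher value between 1 and 10 in this comparison, the range of *Cebpa*, *Cebpb* and *Cebpg*, 54.2% were called. The median log2 ratio of the 8 factors was 0.66, against 0.04 over all genes tested. Of the markers of mature cells, 6 of 6 B cell and 5 of 5 T and NK cell genes were also higher in BM in each fraction. So were 8 of 8 later granule and neutrophil genes, against 11.9% of all genes tested in both fractions. The part of these markers in the differences of the factors was not tested.

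In GFP+ cells 7 of the 8 factors were higher in BM and none in FL, against 58.7% of 12120 genes called, 33.6% as higher in BM and 25.1% as higher in FL. *Spi1*, the exception, was 1.60-fold higher in BM. *Irf8* was 21.2-fold higher (320.0 against 15.1) and *Cebpd* 32.6-fold (29.9 against 0.918). For *Gfi1* and *Cebpg* the FL value was near 0, and the log2 ratios were 2.92 and 2.63. Of all genes with a higher value between 1 and 10 in this comparison, the range of *Cebpa*, *Cebpb*, *Cebpg* and *Gfi1*, 74.9% were called. The median log2 ratio of the 8 was 2.94, against 0.15 over all genes tested. *Gfi1* was thus higher in BM than in FL for GFP+ cells and lower for GFP- cells. These comparisons share libraries with the GFP comparisons above and are not independent of them. Taken over both fractions, 4 factors (*Cebpa*, *Cebpd*, *Cebpe* and *Irf8*) were more than 2-fold higher in BM, as were 11.9% of the 11214 genes tested in both. *Cebpa* counts among them in GFP- cells through 1.23 FPKM against 0, and with an FPKM minimum of 5 the other 3 remained.

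The closest relatives of the factors showed levels of their own. *Spib*, the ETS factor most like PU.1 and best known in B cells and plasmacytoid dendritic cells, read 0.297 and 0.274 FPKM in the FL pair and 238 and 49.3 FPKM in the BM pair, and so lacked the even level of *Spi1*. *Ddit3*, which encodes the C/EBP relative CHOP of the stress response, was at 0.765 and 18.5 in the FL pair and 63.6 and 43.3 in the BM pair, low in the same library as *Cebpg* and *Gfi1*. *Gfi1b*, the paralogue of *Gfi1* that acts in erythroid and megakaryocyte cells, was at 31.7 and 25.6 in the FL pair and 45.4 and 68.4 in the BM pair and did not show the low FL GFP+ value of *Gfi1*. Of 8 such relatives (*Spic*, *Irf1*, *Irf2*, *Irf4* and *Irf5* being the others), 7 passed the minimum in the FL, where *Ddit3*, *Spic* and *Irf4* were called for GFP- and *Irf1* for GFP+. Over all genes tested in the FL, 26.8% were called for GFP- and 17.9% for GFP+. In the BM 4 of 8 relatives were called for GFP+ and none for GFP-, against 21.1% and 19.6% of all genes. *Irf1*, an interferon-induced factor, was the 1 relative higher in FL GFP+ cells, at 75.9 against 23.8, the direction *Irf8* also showed there.

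Partners and upstream regulators of the factors were mostly alike between the fractions of the FL. Of 20 listed, 16 passed the minimum in the FL, with 2 higher in GFP- cells and 1 higher in GFP+ cells, against 26.8% and 17.9% of all genes. Most of the 16 had a higher value above 10 FPKM, where calls were fewer. Of all genes between 10 and 100 FPKM 32.4% were called in either direction, and from 100 up 17.3%. Their median log2 ratio was 0.14, against 0.05 over all genes. *Rcor1*, which encodes a corepressor subunit recruited by GFI1, was listed at 0 in FL GFP+ and stood at 5.49 in FL GFP- cells. *Kdm1a*, the demethylase of the same complex, was at 11.5 and 5.55. *Runx1*, an activator of *Spi1* in stem cells, was within 2-fold in all 4 comparisons, with levels from 12.4 to 24.4 FPKM. Between the BM fractions 8 of the 20 were called for GFP+ and 4 for GFP-, against 21.1% and 19.6% of all genes. *Gata2* and *Lmo2*, factors of the stem cell circuit, were among the 4, at 25.0 against 86.4 and 123 against 412, and *Klf4*, which acts in monocytes, was among the 8, at 10.6 against 2.33. *Trib2*, whose product promotes the breakdown of C/EBPα protein, was at 0.0511 and 0.960 in the FL pair and at 25.5 and 10.1 in the BM pair. Protein levels were not measured.

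Factors of other lineages that oppose the myeloid ones were also read. The B cell factors *Ebf1* and *Pax5* and the T cell factor *Tcf7* were listed at 0 in both FL libraries, as *Cebpa* and *Cebpe* were. In the BM pair *Ebf1* was at 28.7 and 3.15, *Pax5* at 71.6 and 3.32 and *Tcf7* at 7.76 and 1.17. *Gata1*, the erythroid factor that binds and restrains PU.1, was at 36.5 and 6.58 in the FL pair and 41.0 and 49.3 in the BM pair. In the BM 4 of 7 opposing factors were higher in GFP+ and none in GFP- cells, against 21.1% and 19.6% of all genes. Their median log2 ratio was 1.43, above that of the 8 myeloid factors.

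Genes that these factors are known to activate fell into groups that did not move as one. Among cytokine receptors, *Csf3r*, the receptor of granulocyte colony-stimulating factor, was at 16.9 and 28.4 in the FL pair and 36.0 and 21.5 in the BM pair. *Csf1r*, the receptor of macrophage colony-stimulating factor and a target of PU.1, was at 9.56 and 0.0177 in the FL pair and 27.6 and 19.4 in the BM pair. In the FL GFP- library *Csf1r* was thus near 0, while *Spi1* was at 155 and *Irf8* at 4.79. A link of *Csf1r* to the level of either factor was not tested. Of 6 receptors, *Csf1r* alone was called for GFP+ and *Flt3* alone for GFP- in the FL (7.29 against 31.0), and *Il6ra* alone was called in the BM, for GFP+ (27.2 against 11.6). Over all genes, 44.7% were called in the FL and 40.7% in the BM. *Flt3* was at 41.7 and 36.8 in the BM pair, a 1.13-fold difference. The paper describes *Flt3* as higher in GFP+ than GFP- cells of the BM, and lymphoid genes as comparable between the FL fractions. By the deposited labels the larger *Flt3* difference was in the FL. What this means for the GFP labels was not tested.

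The primary and the later granule genes differed in their calls between the BM fractions. The primary granule genes *Mpo*, *Elane*, *Prtn3*, *Ctsg* and *Ms4a3* are expressed in early granulocyte and monocyte progenitors. They were within 2-fold between the BM fractions in 5 of 5 cases, with *Mpo* at 5777 and 4754. Of all genes whose higher value was 100 FPKM or more there, 21.9% were called, so most such genes were also within 2-fold. The primary granule genes were also present in the FL, where *Mpo* was at 247 and 117 while *Cebpa* and *Cebpe* were listed at 0. In the FL *Mpo*, *Elane* and *Ms4a3* were called for GFP+ and *Ctsg* for GFP-, against 17.9% and 26.8% of all genes. The later granule and neutrophil genes, several of which C/EBPε is known to drive, were higher in BM GFP+ than GFP- cells in 8 of 8 cases. Their higher values were also above 100 FPKM, the range in which 21.9% of all genes were called. Their median log2 ratio was 2.42. *Ltf* was at 994 and 251, and *S100a8* at 25286 and 3189, beside 35.1 and 11.2 for *Cebpe* itself. The 8 later genes summed to 27.6 and 25.8 in the FL pair, with *Mmp8* at 0 in both, and to 51214 and 6979 in the BM pair. The part of *Cebpe* in the differences of these genes was not tested. PU.1 and IRF8 are known activators of several of the 10 monocyte and dendritic cell genes. Among 9 past the minimum in the BM, 6 were higher in GFP+ and none in GFP- cells, against 21.1% and 19.6% of all genes. *Itgam*, which encodes CD11b and a target of PU.1, was at 39.0 and 9.11, although CD11b was one of the markers removed by the sort of BM cells. *Ciita*, the master factor of MHC class II genes, was at 0 and 0.166 in the FL pair and 40.3 and 5.39 in the BM pair.

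**Figure D4:**
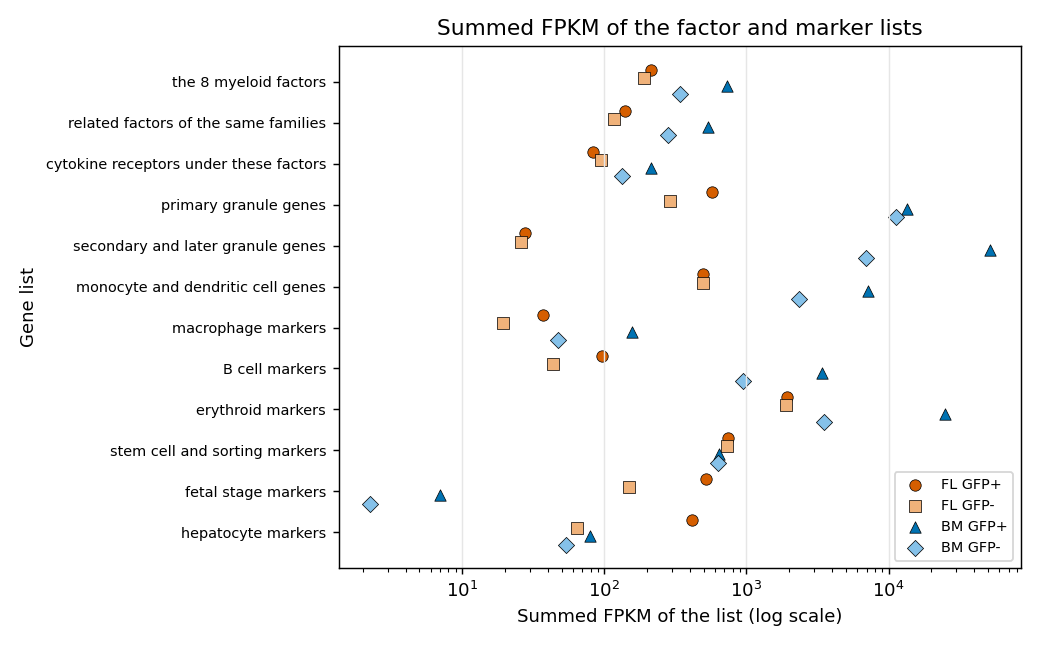
Summed FPKM of each gene list on a log axis in the 4 libraries (1 sample each, no error). The later granule and neutrophil genes sum to 51214 in BM GFP+, mostly from *S100a8* (25286) and *S100a9* (14307), and to under 28 in both FL libraries. The stem cell and sorting genes sum to between 631 and 738 in all 4, a sum that in BM GFP+ consists mostly of *Ly6a* (286) and *Cd48* (267).

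The genes whose pattern over the 4 libraries was most like that of a factor were sought among 12248 genes, by the distance between log2(FPKM + 1) values centred on each gene's own mean. Nearest to *Irf8* were *Junb* (distance 0.378), *Hk3* (0.661) and *Fcgr2b* (0.683), and 12 genes lay within a distance of 1. *Gfi1* had *Adnp2* (0.407) and *Jup* (0.427), with 46 genes within 1. Closest to *Cebpe* were *Cd3g* (0.197), a T cell receptor subunit gene, *Btla* (0.217), an inhibitory receptor gene of lymphocytes, and *Cox6a2* (0.220), all listed at 0 in the FL. *Cebpd* had *Ly6a* (0.206), which encodes the sorting marker Sca1, then *Map3k8* and *Cd55*. *Spi1* lay within a distance of 1 of 3597 genes, which is the flat pattern of many, with *Fam3a* (0.0727) the nearest. For *Cebpa*, *Cebpb* and *Cebpg* the nearest were *Ccl2* (0.121), *Stfa3* (0.107) and *Enox2* (0.112), with 475, 553 and 488 genes within 1. Likeness over 4 points is a description of these libraries.

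Position and sequence bear on how firmly some of these values can be read. In NCBIM37 with GENCODE vM1, *Cebpb* (chromosome 2, 167514415 to 167515918, a single exon) is overlapped on the opposite strand by *Tmem189*, *Gfi1* (chromosome 5, 108145674 to 108155056) by *A430072P03Rik*, and *Irf8* (chromosome 8, 123260258 to 123280594) on its own strand by *Gm20388*. The sources used here do not state that strand was used in counting, so reads of such pairs may be shared. The remaining genes lie on chromosome 16 (*Cebpd*, 15887379 to 15888559), chromosome 14 (*Cebpe*, 55329200 to 55331011) and chromosome 2 (*Spi1*, there named *Sfpi1*, 90922547 to 90955913). The transcripts of *Cebpa*, *Cebpb* and *Cebpe* were rich in G and C, with a content of 62.6% for *Cebpa*, 67.2% for *Cebpb* and 61.6% for *Cebpe*, higher than in 98.3%, 99.6% and 97.4% of genes, against 42.9% for *Cebpg*, which was near 0 in FL GFP+ as well. *Spi1*, high in every library, had 58.9%, higher than in 92.8% of genes. Of 11539 genes that reached 1 FPKM in BM GFP- cells, 10175 had a protein-coding transcript in GENCODE vM1. Of these 10175, 12.6% and 3.97% were listed at 0 in the FL pair and 6.06% in BM GFP+. Among the tenth of them richest in G and C these shares were 17.3%, 6.09% and 10.2%. *Cebpb*, at 0.799 in BM GFP- cells, is not among these genes. The part of base composition in the zeros of *Cebpa*, *Cebpb* and *Cebpe* was not tested.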

How the data were processed

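RNA of 4 samples (LSK-SLAM GFP+ and GFP- cells of FL and BM) was analysed. Libraries followed the SMARTER protocol and were run on an Illumina HiSeq2000. From the mapped reads the authors derived FPKM with Bowtie, TopHat and Cufflinks (2.2.1 in the submitters' notes), with corrections for fragment bias and reads of several origins, and deposited them after geometric scaling by Cuffnorm. The study's methods name the NCBI37/mm9 genome, the submitters' processing notes mm10, and the files hold gene symbols without positions. The study's methods give the mapped reads of each library. Read counts per gene were not analysed here, so their counting error was not estimated. Geometric normalization assumes that most genes do not differ, and FPKM is relative. Where libraries are scaled to equal FPKM totals, very abundant transcripts in one library lower the rest. The deposited totals were not equal, and ran from 541453 in FL GFP- to 1.00085e+06 in BM GFP+.

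Samples were grouped by their deposited titles, although the study's plots appear to show them in the reverse order. Genes were called at more than 2-fold, as in the study, with an added minimum FPKM of 1. No test was possible with 1 sample per group. The calling step was tested on simulated FPKM with changed genes of known fold. The 8 genes and all 15 other gene lists were chosen with earlier results of these data known. Named are the 8 factors, list genes past 2-fold or set beside a factor, and for each factor the 3 genes of most similar pattern, leaving out microRNA, small nucleolar RNA, Gm and Rik symbols. Some of the similar genes are not reported here. *Azu1*, *Adgre1* and *Trac* were not found among the symbols. Alternatives were 3 scalings (equal FPKM total, equal upper quartile, median of ratios), other pseudocounts, minimums and thresholds. Promoters are from RefSeq (GRCm38.p6, 5 of 8 factors), positions and transcripts from GENCODE vM1 (NCBIM37). Python 3.11.15, numpy 2.4.6, pandas 2.3.3 and matplotlib 3.10.9 were used.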

Additional observations from a re-analysis of the deposited data

Results flagged for a closer look

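For 4 factors the log2 ratio of the GFP contrast was below 0 in the FL, past 2-fold, and above 0 in the BM, where *Cebpb* and *Cebpd* were past 2-fold and *Cebpg* and *Gfi1* were not. Subtracting the FL log2 ratio (GFP+ over GFP-) from the BM one gave 4.72 for *Gfi1*, 3.21 for *Cebpb*, 2.65 for *Cebpg* and 2.55 for *Cebpd*. With 1 sample per group the difference was not tested. For *Gfi1* and *Cebpg* the BM ratios alone were small, at 0.46 and 0.07, and the FL GFP+ value near 0 made up the difference. With equal FPKM totals they were 0.07 for *Gfi1* and -0.30 for *Cebpg*, and with equal upper quartiles -0.01 for *Cebpg*, so that its sign in the BM depends on the scaling.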

How the results depend on the processing

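Under the 3 other scalings none of the called log2 ratios of single factors changed sign, and 3 ratios changed their side of the 2-fold threshold, all with equal FPKM totals, under which *Cebpd* and *Irf8* lost their call in the BM and *Cebpb* became called as higher in FL than BM GFP- cells, at a log2 ratio of -0.58. Under that scaling 3 factors were past 2-fold between the BM fractions, in place of 5, and 0 passed in both tissues. It moved the median log2 ratio of all genes by -0.24 in FL, -0.41 in BM, -0.57 between the GFP+ and -0.40 between the GFP- libraries, and the share of calls that were higher in the first-named library from 40.1% to 29.3% (FL), 51.8% to 32.2% (BM), 57.2% to 39.7% (BM over FL, GFP+) and 49.0% to 30.3% (BM over FL, GFP-). A pseudocount of 0.1 in the log2 ratio cannot change a call, which is made on FPKM, but moved the ratios of low genes, for example *Cebpb* in the FL from -1.18 to -3.78 and *Cebpa* between the GFP- libraries from 1.16 to 3.73. Equal upper quartiles moved the medians by -0.21 in FL and -0.15 between the GFP- libraries. An FPKM minimum of 5 left 3 factors called in the FL. A 4-fold threshold left 2 in the BM, 3 between the GFP- libraries and 0 in both tissues. The count of factors higher in BM for both fractions, added after the values were seen, was 3 or 4 throughout. All values rest on single libraries.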

Other observations

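*Batf3*, a factor of conventional dendritic cells that works with IRF8, had an FPKM of 4.90 in FL GFP+ cells and was listed at 0 in the other 3 libraries, while *Irf8* was at 15.1 in FL GFP+ and at 320.0 and 132 in the BM pair. *Cd68*, a lysosomal gene of monocytes and macrophages, was at 0.157 and 17.8 in the FL pair and 96.5 and 34.3 in the BM pair, while *C1qc* was at 31.3 and 7.38 in the FL pair beside *C1qa* at 0 and 3.57. *Jun*, a partner of PU.1, was at 22.1 and 33.0 in the FL and at 471 and 418 in the BM, and *Egr1* at 0.110 and 1.16 against 37.4 and 80.9 in the GFP+ and GFP- cells.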
